A study of Mus musculus with 6 samples.

Results

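Granule neuron effector genes are described here as 6 genes: Slc17a7, Fat2, Reln, Chn2, Rbfox3 and Cadps2. They mark cerebellar granule neurons and are neither transcription factors nor receptors. They were taken by gene symbol from a table of 48709 Ensembl genes, and all 6 were present and passed the filter on low counts, which left 16699 genes. The samples were cerebella of C57BL/6J mice at 40 weeks of age, 3 wild-type and 3 carrying an SCA7 140Q/5Q knock-in at Atxn7, in which the long allele encodes 140 glutamines and the short allele 5. RNA was made from whole cerebellum, so fewer granule neurons and less RNA per granule neuron cannot be told apart. The labels number the replicates but do not say that each is a separate animal, so a p-value reflects only how these samples varied, technical variation included.

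Granule neurons are the small, densely packed excitatory neurons of the cerebellar cortex. They receive mossy fibre input and send parallel fibres, which release glutamate onto Purkinje cells and interneurons. The 6 genes cover different parts of that work. Slc17a7 encodes VGLUT1, which loads glutamate into synaptic vesicles, and Cadps2 encodes CAPS2, which acts in the exocytosis of dense-core vesicles and is known for the release of neurotrophins from granule cells. Reln encodes reelin, a secreted matrix glycoprotein that signals through Vldlr and Lrp8. Fat2 encodes a giant protocadherin of parallel fibres. Chn2 encodes beta-chimaerin, a diacylglycerol-responsive protein that switches off the GTPase Rac, and Rbfox3 encodes the splicing factor known as the neuronal marker NeuN.

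Chn2 fell in the knock-in cerebella to 69.7% of its wild-type level and was the one member of 6 called by edgeR, at a threshold of 0.05 on the adjusted p. Over all tested genes 1.9% were called, made up of 1.28% lower and 0.629% higher. Fat2 had 70.9% of its wild-type level, a difference of nearly the same size, with groups that did not overlap but a wider spread, and was not called. Reln, Slc17a7 and Cadps2 had 82.5%, 88.3% and 90.5% of the wild-type level, and Rbfox3 99.6%, none of them called. The groups did not overlap for 2 of the 6 genes, both lower in knock-in, and of all tested genes 23.8% did not overlap, 11.5% as lower and 12.3% as higher. The median log2 fold change over the 6 genes was -0.23, beside a median of 0.007 over all genes tested. With 1 library left out the median of the 6 ran from -0.34 (without knock-in replicate 2) to -0.15 (without wild-type replicate 2), and it was -0.03 with knock-in replicate 2 as the one knock-in library.

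**Figure D1:**
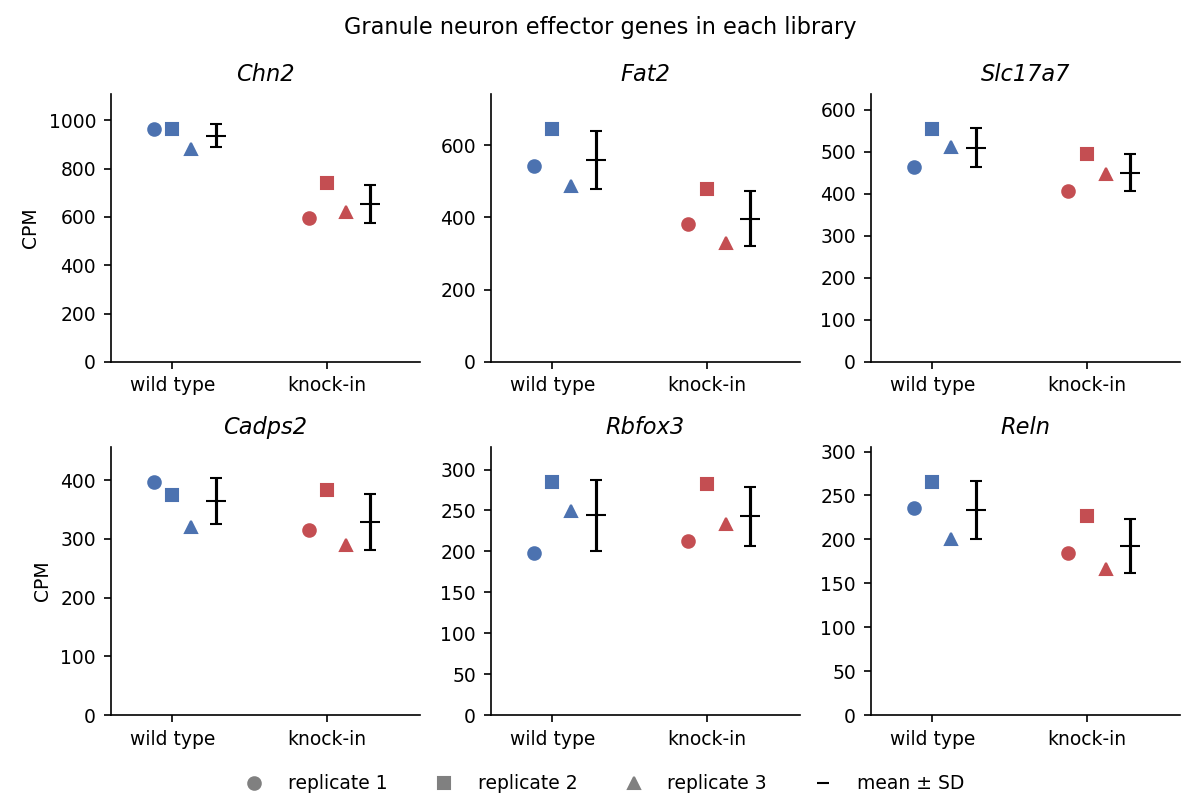
Counts scaled to library size (CPM, vertical axes from 0) of the 6 genes in 3 wild-type (blue) and 3 knock-in (red) libraries, with symbols for the replicate numbers and bars for the mean ± SD. For Chn2 the knock-in libraries lie between 596.8 and 741.1 CPM, all below the lowest wild-type library at 881.4 CPM, while for Rbfox3 the groups overlap over most of their range.

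Because Chn2 was the called member, the sequence before one of its start sites is shown, with that of Slc17a7 for comparison. Chn2 has 4 starts in RefSeq (build GRCm38.p6, of which mm10 is the browser name), the second 224926 bases downstream of the first. Of its 15 GENCODE M21 transcripts 6 start upstream of the second start's promoter and 9 at or downstream of it, and a count per gene adds them all. The pair of windows printed hold the 250 bases before each start, 5′ to 3′ on the plus strand, and contain no GENCODE exon. Capitals mark the E-box CAGCTG, a hexamer that reads the same on both strands and can be bound by basic helix-loop-helix factors.
Chn2 second start, chr6:54264608-54264857: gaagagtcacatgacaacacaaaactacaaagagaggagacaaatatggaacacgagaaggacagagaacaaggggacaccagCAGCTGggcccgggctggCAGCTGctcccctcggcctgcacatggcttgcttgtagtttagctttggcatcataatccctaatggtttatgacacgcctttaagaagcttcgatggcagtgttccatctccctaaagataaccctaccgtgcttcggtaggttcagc
Slc17a7, chr7:45163671-45163920: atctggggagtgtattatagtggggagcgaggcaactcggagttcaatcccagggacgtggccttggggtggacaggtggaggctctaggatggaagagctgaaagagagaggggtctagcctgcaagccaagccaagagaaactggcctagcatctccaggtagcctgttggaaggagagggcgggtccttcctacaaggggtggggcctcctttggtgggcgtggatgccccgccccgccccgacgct

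The window before the second Chn2 start held 2 copies of CAGCTG, and the window before the fourth held 1. GENCODE annotates all 250 bases before the first and the fourth Chn2 starts as exon, and 9 bases before the third. CAGCTG was found in 13% of 32851 RefSeq promoter windows of the same length. The related E-box CAGATG, searched on both strands, was in 14.4% of all windows and in none of those of the 6 genes. The windows differed more in base composition: before the first Chn2 start 74.8% of bases were G or C, with 34 CpG dinucleotides, and before the second 50.4% with 7. Cadps2 and Reln had 44 and 37 CpG dinucleotides in their windows, Slc17a7 9, Fat2 3 and Rbfox3 3, beside a median of 6 over all windows. The RefSeq starts of Fat2 and Rbfox3, at 55312257 and 118761041, lie inside the GENCODE genes. The 5′ ends of these genes, on the minus strand, are at 55336564 and 118911597. The windows of these genes may therefore not be the promoters in use, and sequence before the 5′ ends was not examined. A match is a description of the letters and does not show a bound site.

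Per kilobase of exon, Chn2 was the most abundant of the 6 genes. In wild type it had 161.2 ± 8.24 CPM per kilobase (RPKM, mean ± SD, n = 3), followed by Slc17a7 with 94.6 ± 8.46 RPKM. Rbfox3, Fat2 and Cadps2 lay close together at 42.0 ± 7.48, 38.5 ± 5.52 and 38.0 ± 4.11 RPKM, and their ranges over libraries overlapped. Reln was lowest at 9.84 ± 1.38 RPKM, over an exon length of 23.7 kilobases. In knock-in the order was the same except that Cadps2 (34.4 RPKM) stood above Fat2 (27.3 RPKM). Lengths are the union of all annotated exons. With the longest transcript as the length, the wild-type level of Cadps2 was 73.2 CPM per kilobase and that of Fat2 38.5, so their order depends on this choice, while Chn2 and Slc17a7 stayed the highest and Reln the lowest.

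Slc17a7 (ENSMUSG00000070570, chromosome 7, 45163949 to 45176142, plus strand, mm10) measured 464.1, 555.3 and 510.8 CPM in wild-type replicates 1, 2 and 3, against 407.7, 495.5 and 447.4 CPM in the knock-in replicates of the same numbers. The groups overlapped, with knock-in replicate 2 inside the wild-type range and the other knock-in libraries below it. This was a log2 fold change of -0.18 ± 0.10 (SE, from 3 samples in each group), with a 95% interval from -0.39 to 0.03 and an edgeR adjusted p of 0.353. With offsets for GC content and exon length the same gene was called lower, at a log2 fold change of -0.30 and an edgeR adjusted p of 0.0406. Slc17a7 is also a marker of forebrain excitatory neurons. The forebrain marker list had 0 of 4 tested genes called, its summed level was 10.6 to 11.3 CPM in wild type and at most 11.5 CPM in knock-in, and the defining marker Emx1 had at most 6 counts in any library.

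Other genes of vesicular glutamate loading did not pass the test. Of 10 listed genes 9 were tested and 0 called, with a median log2 fold change of -0.06. The most abundant per exon length was Atp6v1b2, a subunit of the vesicular proton pump, at 819.2 ± 15.7 CPM in wild type against 780.9 ± 25.7 CPM in knock-in (edgeR adjusted p 0.628). Of these 9 genes 1 had an unadjusted edgeR p under 0.05, as did 18.1% of all tested genes. Slc17a6, which encodes the paralogue VGLUT2, had 60.8 ± 13.8 and 69.0 ± 30.8 CPM. It ran from 44.95 to 69.92 CPM in wild type and was 100.1, 38.4 and 68.5 CPM in knock-in replicates 1, 2 and 3. Slc17a8, the third paralogue, was too low to test, with at most 34 counts in a library (knock-in replicate 1).

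Cadps2 (ENSMUSG00000017978, chromosome 6, 23262773 to 23839421, minus strand) measured 397.1, 373.8 and 320.3 CPM in wild-type replicates 1, 2 and 3, against 315.6, 382.3 and 289.9 CPM in the knock-in replicates of the same numbers. The knock-in libraries with the replicate numbers 1 and 3 were below the wild-type range and replicate 2 was within it. The log2 fold change was -0.14 ± 0.11, with a 95% interval from -0.40 to 0.11 and an edgeR adjusted p of 0.548. Its paralogue Cadps, which encodes CAPS1, had 308.5 ± 10.3 and 307.5 ± 16.2 CPM, a log2 fold change of 0.00.

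In the list of vesicle priming and fusion genes 1 of 12 was higher and none lower, with a median of -0.14. The called gene was Ntf3, which encodes neurotrophin-3, a reported cargo of CAPS2 vesicles. Ntf3 measured 3.01, 4.18 and 3.59 CPM in wild-type replicates 1, 2 and 3, against 6.85, 6.20 and 6.71 CPM in the knock-in replicates of the same numbers, with no overlap. It rose by a log2 fold change of 0.88 ± 0.16 (edgeR adjusted p 0.0238), at a low mean level of 2.97 RPKM. Bdnf, the other neurotrophin of the list, had 14.5 ± 2.18 and 13.9 ± 3.68 CPM. Stx1a had the largest estimate of the list, a log2 fold change of 1.02 (edgeR adjusted p 0.1). It was low, at 2.31 ± 0.739 CPM in wild type and 4.68 ± 1.35 CPM in knock-in, without overlap. Snap25, the membrane SNARE of the synaptic fusion complex, was 3335 ± 112 CPM in wild type against 2871 ± 73.8 CPM in knock-in (edgeR adjusted p 0.111).

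Reln (ENSMUSG00000042453, chromosome 5, 21884454 to 22344702, minus strand) measured 235.3, 265.6 and 200.1 CPM in wild-type replicates 1, 2 and 3, against 184.5, 226.9 and 166.7 CPM in the knock-in replicates of the same numbers. Again the wild-type range took in knock-in replicate 2, and the other knock-in libraries were below it. The log2 fold change was -0.28 ± 0.13, with a 95% interval from -0.56 to 0.01 and an edgeR adjusted p of 0.289. With the GC and length offsets it was -0.14. Reln has the longest exon length of the 6 genes.

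Downstream of reelin, Lrp8, which encodes the receptor ApoER2, fell. It measured 107.2, 108.1 and 98.8 CPM in wild-type replicates 1, 2 and 3, against 71.2, 83.4 and 70.4 CPM in the knock-in replicates of the same numbers, a log2 fold change of -0.48 ± 0.09 (edgeR adjusted p 0.0273), and the groups did not overlap. The other reelin receptor, Vldlr, had 203.2 ± 14.5 and 165.4 ± 12.3 CPM (edgeR adjusted p 0.114). The adaptor Dab1, which the receptors use to signal, had 104.3 ± 12.9 and 88.0 ± 10.6 CPM. Of 12 tested genes of the reelin pathway list, without Reln itself, 1 was lower and none higher, with a median log2 fold change of -0.11. An unadjusted edgeR p under 0.05 was found for 2 of the 12. These receptors and Dab1 are also expressed by cells other than granule neurons, Purkinje cells among them.

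Fat2 (ENSMUSG00000055333, chromosome 11, 55250609 to 55336564, minus strand) measured 542.8, 646.0 and 488.0 CPM in wild-type replicates 1, 2 and 3. In the knock-in replicates it measured 383.0, 478.7 and 327.8 CPM. Every knock-in library was below every wild-type library, although knock-in replicate 2 and wild-type replicate 3 were close. The log2 fold change was -0.50 ± 0.14, with a 95% interval from -0.81 to -0.18 and an edgeR adjusted p of 0.108. The interval of this single gene does not reach 0, and the call is missed only after adjustment over 16699 genes (unadjusted p 0.00528).

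Fat2 was called by DESeq2 at a log2 fold change of -0.50 and an adjusted p of 0.013, a test that called 5.43% of genes. It was also called by edgeR with the GC and length offsets, at a log2 fold change of -0.43 and an adjusted p of 0.0375, where 4.26% of genes were called. Without knock-in replicate 2 it was called by edgeR at an adjusted p of 0.0128, in a fit that called 5.04% of genes. With any other library left out it was not called. Leaving out wild-type replicate 1, 2 or 3 gave an edgeR adjusted p of 0.25, 0.261 or 0.134. Leaving out knock-in replicate 1 or 3 gave 0.263 or 0.325. Of its relatives, the Fat and Dachsous cadherins, 0 of 6 were called, 1 had an unadjusted edgeR p under 0.05, and the median was -0.04. The most abundant per exon length was Fat1, at 189.9 ± 22.6 CPM in wild type against 141.5 ± 34.6 CPM in knock-in (log2 fold change -0.42 ± 0.16, edgeR adjusted p 0.196). The Fat1 groups overlapped.

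Chn2 (ENSMUSG00000004633, chromosome 6, 54039554 to 54301810, plus strand) measured 962.5, 966.2 and 881.4 CPM in wild-type replicates 1, 2 and 3. In the knock-in replicates it measured 596.8, 741.1 and 620.7 CPM. All 3 knock-in libraries were below all 3 wild-type libraries, and replicate 2 was the highest of the knock-in group. The log2 fold change was -0.52 ± 0.09, with a 95% interval from -0.73 to -0.32 and an edgeR adjusted p of 0.0237. Among the 6 genes Chn2 also had the smallest spread in wild type, with a coefficient of variation of 5.11% against 8.95% to 17.8% in the others.

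The call of Chn2 was lost when any library but knock-in replicate 2 was left out. Its edgeR adjusted p was 0.104, 0.0859 and 0.0584 without wild-type replicates 1, 2 and 3. It was 0.124 and 0.102 without knock-in replicates 1 and 3, and 0.00247 without knock-in replicate 2, with log2 fold changes between -0.63 and -0.45. Exons of 9130019P16Rik on the opposite strand overlap 9.5% of the Chn2 exon length. That gene had at most 17 counts in a library, against at least 22049 for Chn2.

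Other genes of the Rac pathway were also lower in part, but not all moved the same way. Of 11 genes of the chimaerin and Rac list, 2 were lower and none higher, with a median log2 fold change of -0.20. An unadjusted edgeR p under 0.05 was found for 5 of the 11, beside 18.1% of all tested genes. Chn1, which encodes the paralogue alpha-chimaerin, measured 246.4, 242.2 and 239.0 CPM in wild-type replicates 1, 2 and 3, against 188.0, 170.3 and 196.5 CPM in the knock-in replicates of the same numbers. It fell by 0.39 on the log2 scale (edgeR adjusted p 0.0344), and here knock-in replicate 2 was the lowest library. Kalrn, which encodes kalirin, an exchange factor that activates Rac, fell from 57.9 ± 4.28 to 43.0 ± 3.79 CPM (log2 fold change -0.43, edgeR adjusted p 0.0497). Rac1 itself had 416.1 ± 10.3 and 398.7 ± 8.86 CPM (edgeR adjusted p 0.68). The groups did not overlap for 4 genes of the list as lower and for 1 as higher. The higher gene was Rac3, at 12.7 ± 0.849 and 17.6 ± 3.08 CPM (log2 fold change 0.47, edgeR adjusted p 0.11). Vav2, Tiam2 and Nck2 also had positive estimates, of 0.15, 0.19 and 0.26, with overlap.

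Rbfox3 (ENSMUSG00000025576, chromosome 11, 118489762 to 118911597, minus strand) measured 198.5, 285.1 and 248.8 CPM in wild-type replicates 1, 2 and 3, against 212.6, 282.9 and 233.8 CPM in the knock-in replicates of the same numbers. The ranges lay on top of each other, and replicate 1 was the lowest library in both groups. The log2 fold change was -0.01 ± 0.14, and the 95% interval from -0.31 to 0.30 allows a change of either sign. Its sign was positive with scaling by library size alone (0.07) and negative with the GC and length offsets (-0.17). Of the Rbfox paralogues and members of the large splicing assembly LASR, 0 of 10 were called and 2 had an unadjusted edgeR p under 0.05 (median -0.09). The most abundant per exon length was the helicase gene Ddx5, at 888.4 ± 65.6 and 842.1 ± 58.2 CPM. Rbfox1 had 249.7 ± 17.2 and 215.8 ± 12.8 CPM (edgeR adjusted p 0.212).

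**Figure D2:**
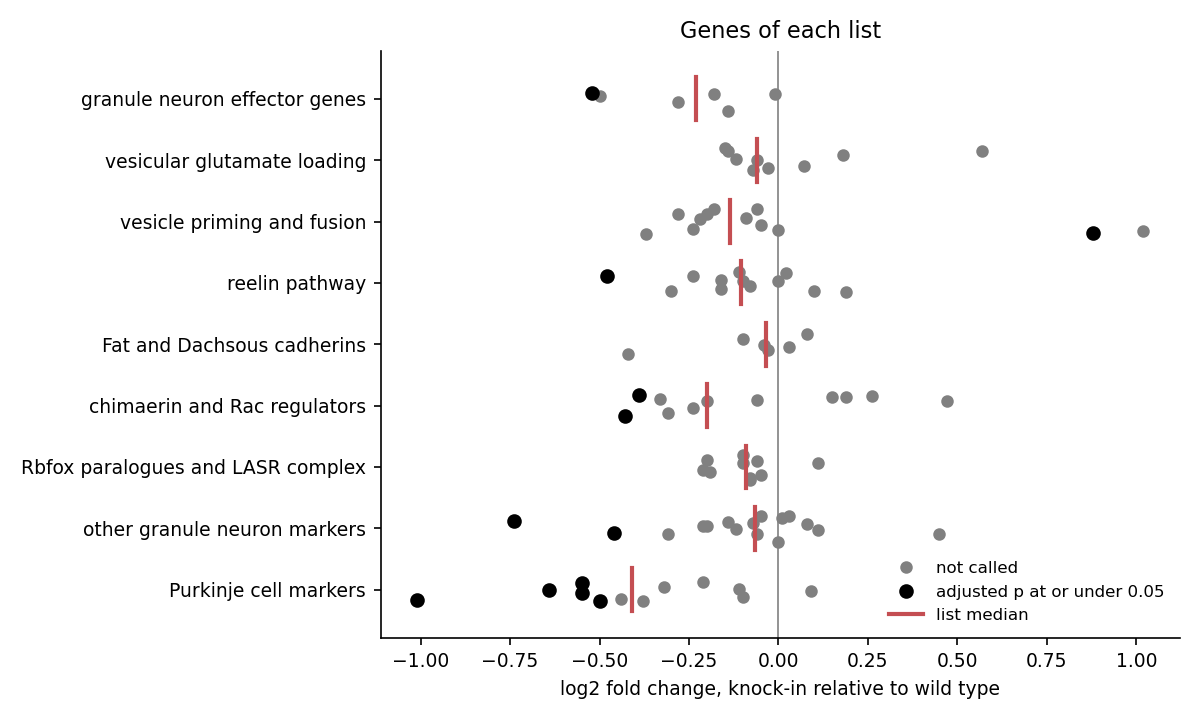
Log2 fold change (horizontal axis, knock-in relative to wild type) of every tested gene in the 6 effector genes, 6 related lists, other granule neuron markers and Purkinje cell markers. Black points passed the edgeR threshold of 0.05, and the red lines mark list medians, from -0.41 for Purkinje cell markers to -0.04 for the Fat and Dachsous cadherins, with -0.23 for the effector genes.

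Among 16 other granule neuron markers, which include transcription factors and receptors, 2 were lower and none higher, with a median of -0.07. An unadjusted edgeR p under 0.05 was found for 3 of the 16. The called genes were Cbln3, a cerebellin subunit made by granule neurons, at 1778 ± 73.3 and 1289 ± 122 CPM, and the glutamate receptor gene Grm4 at 321.0 ± 64.3 and 192.0 ± 34.7 CPM. Their log2 fold changes were -0.46 and -0.74, with edgeR adjusted p of 0.0227 and 0.0443. Gabra6, a GABA-A receptor subunit characteristic of granule neurons, had 814.0 ± 86.0 and 739.6 ± 44.7 CPM (edgeR adjusted p 0.451). The identity factors Zic1 and Neurod1 had log2 fold changes of 0.00 and -0.05. Whether granule neuron genes differ from each other in their change was not tested.

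A ratio to Slc17a7 within each library compares members without any scaling between libraries. For Chn2 the log2 ratio of CPM values was 1.05, 0.80 and 0.79 in the wild-type replicates, against 0.55, 0.58 and 0.47 for knock-in. The groups did not overlap, and knock-in replicate 2, the library nearest to wild type in CPM, did not stand apart in this ratio. For Rbfox3 the ratio was -1.07 ± 0.14 in wild type and -0.89 ± 0.07 in knock-in, higher without overlap. For Fat2 it was 0.13 ± 0.17 and -0.20 ± 0.22, for Reln -1.13 ± 0.19 and -1.23 ± 0.17, and for Cadps2 -0.49 ± 0.23 and -0.46 ± 0.15, all with overlap. Over all other tested genes the ratio to Slc17a7 did not overlap between groups in 26.1%, with 2.44% lower in knock-in, as for Chn2, and 23.6% higher, as for Rbfox3. The ratios were not tested, and the fitted difference between Chn2 and Slc17a7 depends on the processing, since their log2 fold changes were -0.52 and -0.18 by edgeR and -0.45 and -0.30 with the GC and length offsets.

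**Figure D3:**
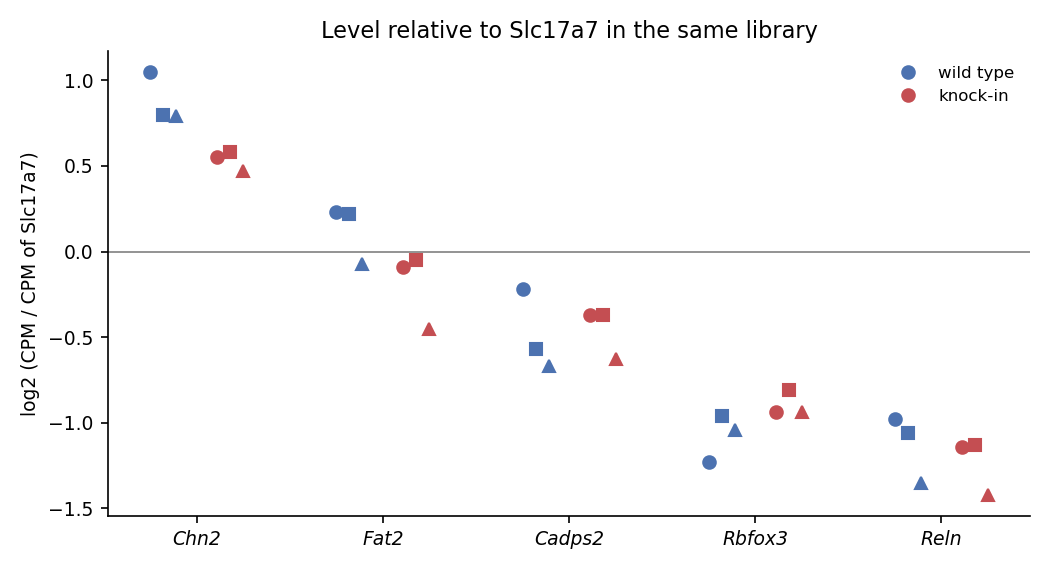
Log2 ratio of the CPM of 5 genes to that of Slc17a7 in the same library (vertical axis), wild type in blue and knock-in in red. Circles, squares and triangles are replicates 1, 2 and 3. The knock-in values of Chn2, 0.47 to 0.58, lie below its wild-type values, 0.79 to 1.05, and those of Rbfox3 lie above.

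The libraries held 34630391 to 49127673 counts, and a member had at least 5987 counts in each, so the spread between samples, not counting error, set the precision. Knock-in libraries differed in genes of neighbouring tissue. The summed level of the 5 tested brainstem markers ranged from 1.86 to 6.39 CPM over the wild-type libraries. It was 54.5, 7.48 and 26.9 CPM in knock-in replicates 1, 2 and 3. None of the 5 was called, 5 had an unadjusted edgeR p under 0.05, and the median was 3.27. Fev and Chat were among the markers too low to test, and they did not move alike. Fev had 7, 15 and 8 counts in wild-type replicates 1, 2 and 3 against 12, 2 and 5 in knock-in, and Chat had 2, 0 and 5 against 105, 1 and 16. Replicate 2 of that group, nearest to wild type in these markers, was also the knock-in library with the highest level of each of the 6 genes. The same library stood apart in choroid plexus markers, whose summed level was 15.9 CPM there, against 264 and 1300 CPM in knock-in replicates 1 and 3 and 495 to 1880 CPM in wild type. Ttr, which encodes the choroid plexus product transthyretin, was at 2.59 CPM in it and between 238.6 and 1778 CPM in the others. None of the 6 choroid plexus markers was called, and 1 had an unadjusted edgeR p under 0.05.

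With the mean log2 CPM of the 5 tested brainstem markers as a covariate in the fit, Chn2 and Fat2 had log2 fold changes of -0.41 and -0.49, with edgeR adjusted p of 0.869 and 0.892. That fit called 4 genes in all, and the covariate cannot be told apart in part from the genotype. Set against the wild-type libraries alone, knock-in replicate 2 gave a log2 fold change of -0.32 for Chn2 and -0.21 for Fat2, and between -0.03 and 0.23 for the other genes, none of them called by edgeR. Purkinje cell markers had 5 of 12 lower and a median of -0.41. Of these 12 markers 9 had an unadjusted edgeR p under 0.05, beside 18.1% of all tested genes. The summed level of the Purkinje cell markers was 13700 to 15600 CPM in wild type against 9150 to 11000 CPM in knock-in. Bergmann glia and astrocyte markers had 4 of 9 lower, with sums of 5340 to 5450 and 4160 to 4650 CPM, and 5 had an unadjusted edgeR p under 0.05. Of 10 interneuron markers none was called, but the groups did not overlap for 6, all lower in knock-in, 6 had an unadjusted edgeR p under 0.05, and the median was -0.25. Their summed level was 1610 to 1760 CPM in wild type and 1360 to 1480 CPM in knock-in. Gad1 made up a large part of this sum, with means of 875.9 CPM in wild type and 736.9 CPM in knock-in. Of 6 unipolar brush cell markers 1 was called lower, 3 did not overlap, all lower, and the median was -0.31, with sums of 895 to 1010 and 708 to 841 CPM. An unadjusted edgeR p under 0.05 was found for 3 of these 6. The median of 9 oligodendrocyte markers was 0.05, 1 was called in each direction, and 3 had an unadjusted edgeR p under 0.05. The part of these other cells in the results for the 6 genes was not tested.

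**Figure D4:**
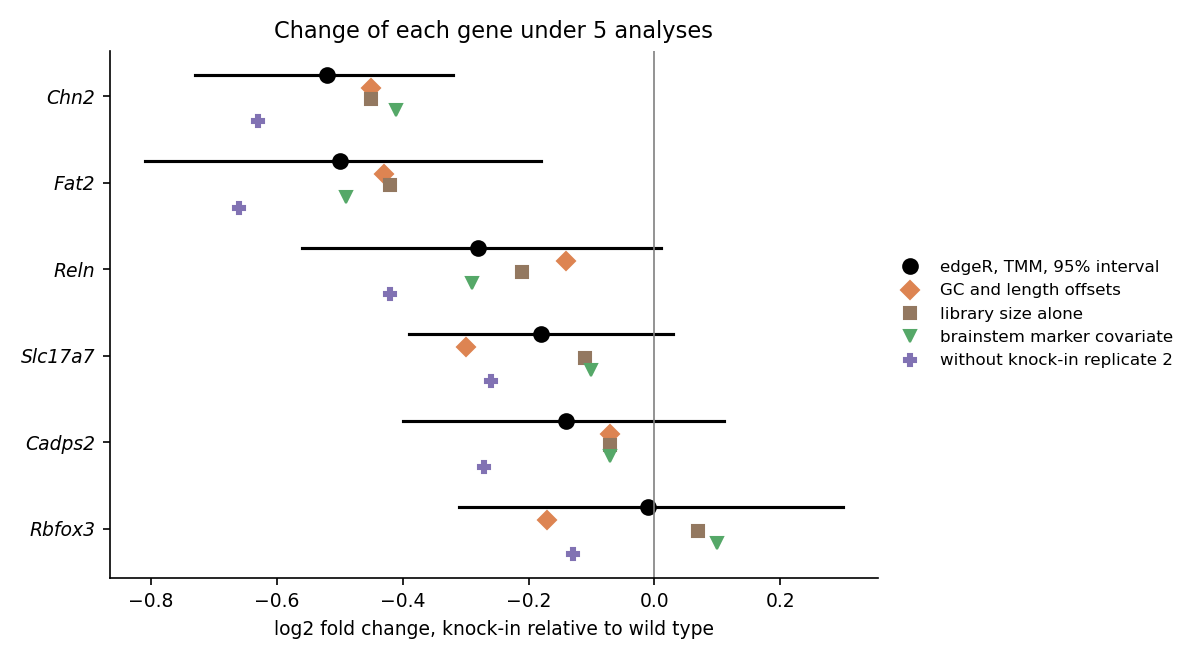
Log2 fold change (horizontal axis, knock-in relative to wild type) of the 6 genes under 5 analyses. Black points and bars are the edgeR estimate with its 95% interval, and coloured symbols are estimates with another setting. Chn2 and Fat2 lie below 0 in each, between -0.66 and -0.41, and Rbfox3 lies on both sides of 0.

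Chn2 and Rbfox3, at the ends of the order of change, also stood at the ends in base composition. The GC content of the longest transcript was 58.6% for Rbfox3 and 56.6% for Slc17a7, and lowest for Chn2 at 45.2%. With offsets that remove each library's trend with GC content and exon length, the log2 fold changes became -0.45 for Chn2, -0.43 for Fat2, -0.30 for Slc17a7, -0.17 for Rbfox3, -0.14 for Reln and -0.07 for Cadps2. The gap between Chn2 and Rbfox3 was smaller on that scale, and 3 of the 6 genes were called lower, where 4.26% of all genes were called. The median of the 6 genes was -0.23 with and without the offsets.

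The genes with the most similar profile to each member were found among 9995 protein-coding genes with a mean of at least 10 CPM. The measure was the root mean square difference of mean-centred log2 CPM over the 6 libraries. For Chn2 the nearest was the zinc finger gene Zbtb46, at a difference of 0.0153, followed by A2m, an alpha-2-macroglobulin gene of Bergmann glia. These had log2 fold changes of -0.52 and -0.56, and neither is in the granule neuron lists. For Fat2 they were Adcy1, a calcium-stimulated adenylyl cyclase (0.0421), Sorl1, a sorting receptor, and Camk4, a calmodulin-dependent kinase. None of these was called, with edgeR adjusted p of 0.17, 0.0573 and 0.0855.

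For Slc17a7 the nearest genes were Csdc2 (0.0205), Coro2b and Prrt1, which encodes a partner of AMPA receptors. For Reln they were the Ras regulator gene Nf1 (0.0266), the netrin receptor gene Unc5c and the kinase gene Prkca. For Cadps2 they were Tiparp (0.0178), St18 and Edem3. For Rbfox3 they were Jup, which encodes plakoglobin (0.0328), Fam57b and Ppp1r9b, which encodes the spine protein spinophilin. These neighbours are a description over 6 libraries.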

How the data were processed

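Messenger RNA of whole cerebellum was sequenced in 3 wild-type and 3 SCA7 knock-in samples. A stranded mRNA kit (TruSeq) was used, per the labels' protocols. The authors deposited raw read counts per Ensembl gene. Per the submitters' processing notes, the tools were HTSeq 0.6.1, TopHat2 2.0.14, Bowtie2 2.1.0 and bcl2fastq 2.17.1.14, with build mm10. For the annotation release and strand setting, the sources used here give nothing. Symbols, positions and lengths came from GENCODE M21 (48349 of 48709 identifiers matched) and promoter sequences from RefSeq GRCm38.p6, which held all 6 genes.

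Tests used R 4.3.3 and edgeR 4.0.16 (filterByExpr with minimum count 10 and minimum total 15, TMM, quasi-likelihood F test, Benjamini-Hochberg adjustment over 16699 genes, called at 0.05). The standard error is the absolute log2 fold change divided by the square root of F. CPM uses TMM-scaled library sizes. Alternatives used DESeq2 1.42.0 and limma 3.58.1. In simulated counts for this comparison (16457 genes run) the test called 64% of genes changed by 1.5-fold and 87% of those changed by 2-fold. Of its calls 10.1% fell on genes left unchanged, a share above the threshold of 0.05, so calls near that threshold are less certain. The simulation drew each gene independently around a common mean, so tissue differences shared by many genes of a library were not in it. Pairs of libraries within a group differed by more than sampling noise (chi-square per degree of freedom 14.01 to 30.21).

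The members, lists and alternatives were chosen with earlier results of these data known. Named genes are all members, up to 3 called genes of each related list or else its most abundant gene per exon length, and the 3 nearest profiles of each member. A few genes that the rule names are not reported here. Paralogues, receptors, markers and other genes named outside this rule were chosen after their values were seen.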

Additional observations from a re-analysis of the deposited data

How the results depend on the processing

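Settings moved the number of called genes more than the estimates. Against 318 of 16699 genes, 513 were called with scaling by library size alone (190 lower and 323 higher). Without a filter 1303 of 27889 genes were called. DESeq2 called 898 (5.43%), the GC and length offsets 712 (4.26%) and the brainstem covariate 4. Leaving out 1 sample gave 39 to 858. Of the 6 members, 2 were called without a filter, 2 by DESeq2, 3 with the offsets and 0 with the covariate, and 0 to 2 with 1 sample left out. Chn2 was lower in 16 of 16 alternatives and called in 9. Its log2 fold change was -0.41 with the covariate and -0.63 to -0.45 with 1 sample left out. Fat2 was also lower in 16 and called in 6, at -0.50 without a filter and by DESeq2, -0.43 with the offsets and -0.66 to -0.37 with 1 sample left out. Slc17a7 was called with the offsets (-0.30) and Reln was lower in 16. Rbfox3 was higher with library size alone (0.07) and the covariate (0.10), was 0.00 by limma-voom, and ran from -0.15 to 0.12 with 1 sample left out. Ranges with 1 sample left out were -0.26 to -0.11 for Slc17a7, -0.42 to -0.18 for Reln and -0.27 to -0.05 for Cadps2. Without knock-in replicates 1 and 3, an alternative chosen after seeing the data in which the lone knock-in library is assumed to vary like wild type, 23 genes and 0 members were called. Chn2 was then -0.32, Rbfox3 0.23 and Cadps2 0.09. The cause of these differences was not tested.

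Deviations from the group mean correlated across genes at 0.001, 0.174 and 0.318 between samples with the same replicate number. Between samples with different numbers the correlations ran from -0.291 to 0.103. The labels do not say that the numbers pair samples, so they are not taken as pairs, and pairing was not tested. With the replicate number as a block 2034 of 16699 genes were called. Of the 6 members 3 were called: Chn2 (-0.53), Fat2 (-0.50) and Reln (-0.28). With the replicate block and the offsets together 1552 of 16699 genes were called. The members called were 4 of 6, namely Chn2, Fat2 (-0.43), Slc17a7 (-0.30) and Rbfox3 (-0.17).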
